A study of Mus musculus with 2 samples.

Results

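Cluster 9 of the FGF2 library was the cluster of dividing cells in stroma grown with FGF2 (fibroblast growth factor 2, a secreted mitogen for many mesenchymal cells). Its members are the genes that the authors' deposited table of this library lists for cluster 9. There were 273 of them, out of 7725 entries for 3058 genes in 17 clusters of that table, and out of 18093 entries in the tables of both libraries. The table lists 228 of the genes as higher in cluster 9 than in all other cells of the same library and 45 as lower. Of the 20056 genes tested in this comparison, 1.14% were listed as higher and 0.224% as lower. The clustering used the same genes, so these entries describe the cluster and test nothing.

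The cells came from salivary gland organoids of CD-1 mice (outbred), taken at embryonic day 16. The age label adds a further 7, whose unit is not given. Single-cell RNA was captured in droplets from 10107 cells of organoids with FGF2 and from 5023 cells of control organoids, 1 library each. The sources used here give no dose or timing of FGF2, no number of embryos or glands pooled and no treatment of doublets, and the depth per cell is unknown. No library had a replicate, so no value below has a replicate error and no difference between libraries was tested. Shares of cells are percentages of cells with a count of the gene. The number of cells behind them is not listed, so no counting interval could be given.

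The cell cycle runs from G1 through DNA replication in S phase to G2 and mitosis. Genes for replication are switched on at the G1/S border by E2F factors, while many genes for mitosis are switched on later through promoters with CHR and CCAAT elements, read by the MuvB complex with B-MYB and FOXM1 and by NF-Y. Sister chromatids are condensed, attached to spindle microtubules by kinetochores and parted once the anaphase-promoting complex destroys securin and cyclin B. In embryonic glands the mesenchyme grows together with the branching epithelium and signals to it.

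The 3 markers behind the label led or stood high among the entries, which describes the cluster by genes it was named for and tests nothing. Top2a, the topoisomerase that untangles replicated DNA, had a natural log ratio of 1.61 in the authors' deposited table, the highest of all 273 genes, and was counted in 86.8% of cluster 9 cells against 11.4% of the other cells. Cenpf, a kinetochore protein of late cycle, followed with 1.22 (81.9% against 12%), and Mki67, the antigen used to stain cycling nuclei, with 0.82 (74.3% against 2.6%). None of the 3 is listed for any other cluster of the FGF2 library. All 10 genes of a wider marker list were listed as higher too, among them Birc5, Cdk1 and Rrm2.

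Markers of other cell types were missing from the entries. Of 8 lists (epithelium, endothelium, macrophage, neutrophil, mast cell, Schwann cell or glia, pericyte and erythroid cell), 25 genes appear somewhere in the FGF2 table and 0 of them under cluster 9. No endothelial or erythroid marker appears anywhere in it. Of all genes tested, 1.36% are listed for cluster 9 in either direction, so 0 of 25 is near that share and says little. Of 8 fibroblast or stromal markers, Dcn (decorin, a small matrix proteoglycan) and Twist2 (a mesenchymal transcription factor) are listed, both as lower, while Pdgfra, Col1a1, Col1a2, Col3a1, Lum and Prrx1 are not listed for cluster 9. Dcn was nevertheless counted in 93.8% of its cells, against 91.6% of the other cells. In cluster 15, which was led by the mast cell proteases Cma1 (95.3% of its cells), Mcpt4 and Mcpt2, the share with a Dcn count was 48.4%, a level that cells unlikely to make decorin show in this library. A gene that is not listed is not absent. The FGF2 table holds no entry with a log ratio under 0.25 in size or with its larger share under 25.1%, so genes spread evenly over the clusters and genes counted in few cells are both left out.

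The cluster held 4.42% of the FGF2 library, recovered from the listed shares. Its hold on a gene's positive cells differed widely. For 48 of the 228 genes listed as higher, more than 50% of all cells with a count lay in cluster 9. Kif11, the kinesin that pushes spindle poles apart, had 82.3% of its positive cells there, the kinetochore gene Ska1 81.4%, the kinetochore scaffold Knl1 77.8%, the checkpoint kinase Bub1 76.5% and cyclin A2 (Ccna2) 74.7%. Mki67 had 56.9% there, Top2a 26.0% and Cenpf 24.0%. Free RNA in the droplets, which gives counts in cells that do not make a gene, was not measured, and its part in the shares of the other cells was not tested.

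Most of the genes with the highest log ratio were G2/M genes. After Top2a came Ube2c, the ubiquitin-conjugating enzyme of the anaphase-promoting complex, with a log ratio of 1.54 in the authors' deposited table and counts in 83.7% of cluster 9 cells against 6.2% of the other cells. Next stood Cenpa, the histone H3 variant of centromeres (1.38, 87.3% against 19.7%), and Prc1, which bundles the microtubules of the central spindle (1.28, 85.0% against 6.4%). Of the 20 genes with the highest log ratio, 13 belong to a widely used list of G2/M genes and 0 to its S phase partner. The 7 in neither list were Prc1, the microtubule destabiliser Stmn1 (1.15), securin (Pttg1, 1.13), the condensin subunit Smc2 (1.03), the PCNA-binding protein Pclaf (1.03), the tubulin Tuba1b (0.97) and Arl6ip1, a membrane protein of the endoplasmic reticulum (0.92).

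**Figure D1:**
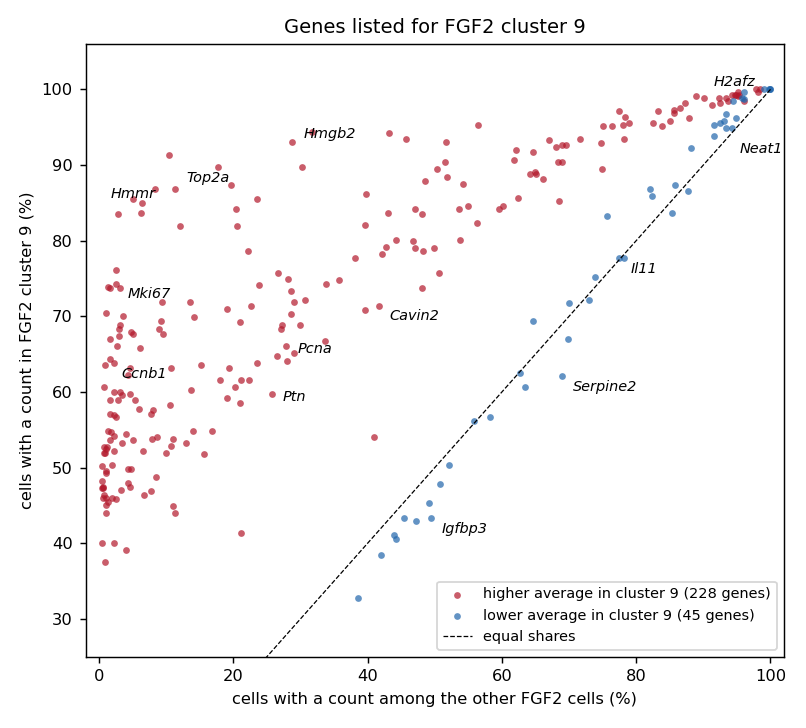
Each point is 1 of the 273 genes listed for FGF2 cluster 9, with the percentage of cells with a count in cluster 9 against that in all other cells of the FGF2 library; colours mark genes listed as higher and as lower. The 228 higher genes all lie above the diagonal, and the 45 lower ones lie within 7.6 points of it.

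By the difference of shares between cluster 9 and the other cells, the following genes led. Tpx2, which activates Aurora A on spindles, stood first with 80.8 points (91.3% of cluster 9 cells against 10.5% of the others). It was followed by the spindle assembly factor Hmmr (80.7 points), survivin (Birc5, 80.5), Prc1 (78.6), borealin (Cdca8, 78.5), Ube2c (77.5), Top2a (75.4), Pclaf (73.6), the spindle protein Nusap1 (72.5) and the kinase Pbk (72.1). Survivin and borealin are subunits of the chromosomal passenger complex, which corrects faulty spindle attachments.

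The promoters of 5 leading genes are printed to show which letters of the G1/S and mitotic control elements they hold. Sequences run from 250 bases before to 50 after the start of each gene in RefSeq, build GRCm38.p6, 5′ to 3′ on the gene's strand. Capitals mark every CCAAT box, every CHR (the letters TTTGAA) and every E2F motif on either strand. The E2F motif was searched in 4 forms, which are TTCCCGC and the form TTCGCGC as well as TTGCCGC and the form TTGGCGC. A box that lies on the opposite strand reads ATTGG in print, and a CHR there reads TTCAAA. The first 3 genes were taken as the highest by log ratio with a CCAAT box and a CHR, at chr11:99024140-99024439 (minus strand), chr2:164769679-164769978 (plus strand) and chr5:30666636-30666935 (plus strand).
Top2a: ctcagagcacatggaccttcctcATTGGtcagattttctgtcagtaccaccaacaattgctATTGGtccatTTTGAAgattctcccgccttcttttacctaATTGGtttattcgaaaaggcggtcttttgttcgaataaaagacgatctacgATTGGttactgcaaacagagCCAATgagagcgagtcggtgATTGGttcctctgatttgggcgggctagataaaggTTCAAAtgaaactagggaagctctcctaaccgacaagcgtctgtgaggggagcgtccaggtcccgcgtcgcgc
Ube2c: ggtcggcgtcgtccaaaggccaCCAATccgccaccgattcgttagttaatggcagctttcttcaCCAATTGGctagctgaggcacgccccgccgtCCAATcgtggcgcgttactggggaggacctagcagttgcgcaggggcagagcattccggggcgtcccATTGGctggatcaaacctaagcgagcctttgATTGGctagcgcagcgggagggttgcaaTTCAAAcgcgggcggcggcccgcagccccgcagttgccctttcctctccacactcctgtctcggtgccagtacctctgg
Cenpa: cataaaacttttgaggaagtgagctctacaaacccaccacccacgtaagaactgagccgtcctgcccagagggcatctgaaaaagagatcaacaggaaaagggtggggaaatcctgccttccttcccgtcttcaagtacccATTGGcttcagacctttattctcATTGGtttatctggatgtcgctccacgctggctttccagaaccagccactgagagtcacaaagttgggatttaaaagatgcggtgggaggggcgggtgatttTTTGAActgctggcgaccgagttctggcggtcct
In Ube2c a CCAAT box overlaps a reverse one, so the capitals there run together. The CHR nearest to the start begins at -23 in Top2a, at -29 in Ube2c and at 17 in Cenpa, counted from the start of the gene.

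The other 2 were the highest with an E2F motif, Hmmr at chr11:40733388-40733687 (minus strand) and Pclaf at chr9:65890073-65890372 (plus strand).
Hmmr: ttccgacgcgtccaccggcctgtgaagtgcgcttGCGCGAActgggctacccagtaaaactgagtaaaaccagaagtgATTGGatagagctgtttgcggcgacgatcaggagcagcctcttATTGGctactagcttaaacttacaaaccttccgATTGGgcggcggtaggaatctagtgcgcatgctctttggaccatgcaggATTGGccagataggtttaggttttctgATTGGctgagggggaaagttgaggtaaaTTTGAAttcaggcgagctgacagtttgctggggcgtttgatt
Pclaf: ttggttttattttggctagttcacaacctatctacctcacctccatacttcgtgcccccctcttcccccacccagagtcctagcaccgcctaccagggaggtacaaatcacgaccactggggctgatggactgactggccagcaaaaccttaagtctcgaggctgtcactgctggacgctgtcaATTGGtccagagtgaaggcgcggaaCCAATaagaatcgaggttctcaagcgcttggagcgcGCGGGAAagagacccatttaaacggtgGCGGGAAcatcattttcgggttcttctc
In Pclaf the E2F letters begin at -5 and 23, on both sides of the start, while in Hmmr they begin at -216 and a CHR begins at 9. Hmmr is a spindle gene, and Pclaf binds the sliding clamp of DNA replication.

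G2 and mitotic genes were listed far more completely than S phase genes. Of 54 genes of the G2/M list, 48 (88.9%) are listed, all as higher, with a median log ratio of 0.54. Of 43 genes of the S phase list, 19 (44.2%) are listed, all as higher, with a median of 0.36. Those 19 are all of the S phase list that the FGF2 table holds for any cluster, against 50 of the G2/M list. The other S phase genes have no value, so the gap depends on the limits of that table. The median over all 228 higher genes was 0.39. The G2/M genes were counted in a median of 71.1% of cluster 9 cells against 3.3% of the other cells, and the S phase genes in 63.2% against 19.3%. All 152 genes of the 388 symbols on the 19 cell cycle lists that are listed for cluster 9 are listed as higher.

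**Figure D2:**
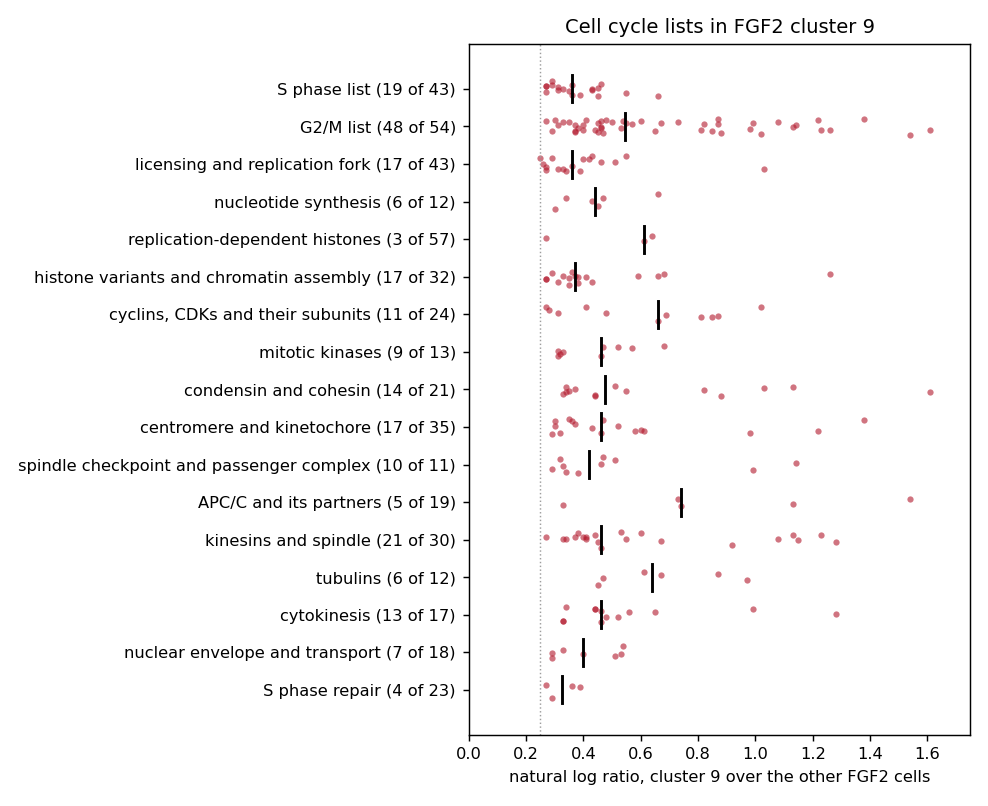
Natural log ratio of every cell cycle gene listed for FGF2 cluster 9, as points in 1 row per list, with the list's median as a bar and the number listed of all its symbols beside its name. The dotted line is the smallest listed size of 0.25, unlisted genes are not drawn, and the G2/M list (median 0.54) reaches further right than the S phase list (median 0.36).

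Of 43 licensing and replication fork genes, 17 are listed as higher and the other 26 appear nowhere in the FGF2 table. Listed were 4 of the helicase subunits, Mcm3 (0.40), Mcm4 (0.31), Mcm6 (0.36) and Mcm7 (0.42). Gmnn, the inhibitor that keeps origins from firing again, reached 0.55 (67.6% of cluster 9 cells against 9.5% of the others). Pcna, the sliding clamp, had 0.46 (66.1% against 27.9%), Lig1, the ligase of Okazaki fragments, 0.51, the clamp loader subunit Rfc4 0.43 and the checkpoint mediator Clspn 0.39. Among 12 genes of nucleotide synthesis, 6 are listed, led by the ribonucleotide reductase subunit Rrm2 (0.66, 67.6% against 5.1%), thymidine kinase (Tk1, 0.47) and thymidylate synthase (Tyms, 0.43). Of 23 genes of S phase repair, 4 are listed, among them the replication checkpoint protein Topbp1 (0.39) and the deubiquitinase Usp1 (0.27).

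Of 57 replication-dependent histone genes, 3 (5.26%) are listed, all as higher, against 1.14% of all genes tested. Hist1h1b (0.64, 58.9% against 5.3%), Hist1h2ap (0.61, 53.3% against 3.5%) and Hist1h1e (0.27, 44.0% against 11.3%) are these 3 genes. Most transcripts of such histones lack a poly(A) tail. Of 32 genes of histone variants, chaperones and chromatin assembly, 17 are listed, with counts in a median of 73.7% of cluster 9 cells and 30.7% of the other cells. The chaperone Asf1b had the smallest share in the other cells, with 59.8% against 4.6% (0.36). H2afz, the replacement histone H2A.Z, was counted in 99.3% of cluster 9 cells and 94.7% of the others (0.68), and Hmgb2, a chromatin protein of dividing cells, in 93.1% against 28.8% (1.26). The maintenance methyltransferase Dnmt1 had 0.35, the PRC2 methyltransferase Ezh2 0.41 and the remodeller Hells 0.43.

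Among the regulators listed for cluster 9, mitotic ones outnumbered those of G1 and S phase, a count that depends on the lists used. Ccne1, Ccne2, Cdk2 and Cdk6 appear nowhere in the FGF2 table, so their levels are unknown here. Of 24 cyclins, CDKs and their partners, 11 are listed, with the mitotic kinase Cdk1 (0.87, 81.9% against 20.5%), Ccna2 (0.66, 70.5% against 1.1%), Ccnb1 (0.69, 64.3% against 1.7%), Ccnb2 (0.81, 68.3% against 3.0%), Cks1b (0.85) and Cks2 (1.02). The G1 cyclin Ccnd1 is the only D-type or E-type cyclin among them (0.41, 88.2% against 66.1%). Of 13 mitotic kinases, 9 are listed, with medians of 57.1% in cluster 9 and 1.6% in the other cells. These include Aurka (0.57) and Aurkb (0.46), Plk1 (0.52), Pbk (0.68), Bub1 (0.47) and Ttk (0.33). None of 17 E2F, FOXM1 and MYB family genes appears anywhere in the FGF2 table, whose limits on size and share leave their levels unknown here. Of 7 CDK inhibitors none is listed for cluster 9, which lists 1.36% of all genes tested in either direction. Other clusters of the library list 5 of them, in both directions. Cdkn2a had 0.62 in cluster 0 (86.2% of its cells), and Cdkn2b 0.53 there (98.4%). In cluster 5 they had -0.45 and -0.73, and Cdkn1a is listed only as lower.

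The machinery of chromosome structure and attachment was broadly represented. Of 21 condensin, cohesin and chromosome genes, 14 are listed, with Smc2 (1.03), Smc4 (0.88), Rad21 (0.44) and the shugoshins Sgo1 (0.51) and Sgo2a (0.55), which guard cohesin at centromeres. Of 35 centromere and kinetochore genes, 17 are listed, led by Cenpa, Cenpf and the motor Cenpe (0.98, 73.7% against 3.1%), with the microtubule-binding subunits Ndc80 (0.46), Nuf2 (0.37), Spc24 (0.47) and Spc25 (0.58). Of 11 genes of the spindle checkpoint and passenger complex, 10 are listed, from Birc5 (1.14) and Cdca8 (0.99) to Trip13 (0.29). The anaphase-promoting complex gave 5 of 19. These were its activator Cdc20 (0.73), its enzymes Ube2c and Ube2s (0.74), its inhibitor Fbxo5 (0.33) and its substrate Pttg1 (1.13).

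Spindle and cytokinesis genes completed the mitotic set. Of 30 kinesins and spindle genes 21 are listed, among them 8 kinesins of the Kif family, each in at most 4.1% of the other cells. Kif20b stood highest among these motors (0.53) and Kif15 lowest (0.27). Of 12 tubulins, 6 are listed, from Tuba1b (0.97) and Tubb4b (0.87) to Tuba1a (0.45), with medians of 92.8% in cluster 9 and 70.7% in the other cells. Of 17 cytokinesis genes, 13 are listed, including anillin (Anln, 0.65), the RhoA regulators Ect2 (0.44) and Racgap1 (0.56), and Cep55 (0.33), which marks the midbody. Of 18 nuclear envelope and transport genes, 7 are listed, with Tmpo (0.54), Ran (0.53), Ranbp1 (0.51) and Lmnb1 (0.33). Breadth of detection separated 2 kinds of entry. In 66 higher genes under 5% of the other cells had a count, and in 32 over 90% of cluster 9 cells and over 75% of the other cells had one.

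Outside every list stood 72 higher genes. Several act in the cycle too, such as Dbf4, the activator of the origin-firing kinase Cdc7 (0.65), Knstrn, a spindle protein (0.56), Depdc1a (0.40), the RhoA regulator Arhgap11a (0.34) and thymidylate kinase (Dtymk, 0.33). Others handle chromatin, such as Dek (0.55), Nucks1 (0.48), Psip1 (0.48), Ssrp1 of the FACT complex (0.37) and the linker histone H1fx (0.36). These examples were chosen after their values were seen.

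Stromal genes of both directions accompanied the cycle genes. Of the 189 symbols on the lists of matrix, contractile, signalling and stress genes, 20 (10.6%) are listed for cluster 9, with 5 as higher and 15 as lower. Of all genes tested, 1.36% are listed in either direction. However, 155 of the 189 symbols appear somewhere in the FGF2 table, against 3058 of the 20056 genes tested. The lists were also chosen with earlier results of these data known, so these shares do not measure an excess. The higher stromal list genes were Vim (vimentin, the intermediate filament of mesenchymal cells, 0.47), Ccnd1 (0.41) and Tagln2 (an actin-binding protein, 0.38). With them stood Ccl2 (a monocyte chemokine, 0.36) and Ptn (pleiotrophin, a heparin-binding growth factor, 0.33). Ccnd1 is also counted among the cell cycle genes above. Ptn was counted in 59.8% of cluster 9 cells and in 25.7% of the other cells, the widest gap of the 5. Ccl2 was counted in 85.3% against 68.5%, and Vim in 99.6% against 95.2%. In cluster 15, led by mast cell proteases, 42.2% of cells had a Ccl2 count and 60.9% a Vim count, while Ptn is not listed there.

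The same stromal genes were listed for other clusters of the library as well. These comparisons share cells, so the values are set side by side without a test. Ccl2 had a log ratio of 0.60 in cluster 6, where 91.9% of cells had a count, and Ptn 0.34 in cluster 4, with 55.6%. Vim had 0.50 in cluster 3, and Ccnd1 0.45 in cluster 0. Of genes on no list, the caveolar genes Cavin2 (0.46, 71.4% against 41.7%) and Cav1 (0.30, 70.8% against 39.6%) and the stress-induced factor Gdf15 (0.33, 41.3% against 21.2%) are listed as higher in cluster 9. They were picked after their values were seen. Cavin2 reached 1.2 in cluster 4 and 0.80 in cluster 6.

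**Figure D3:**
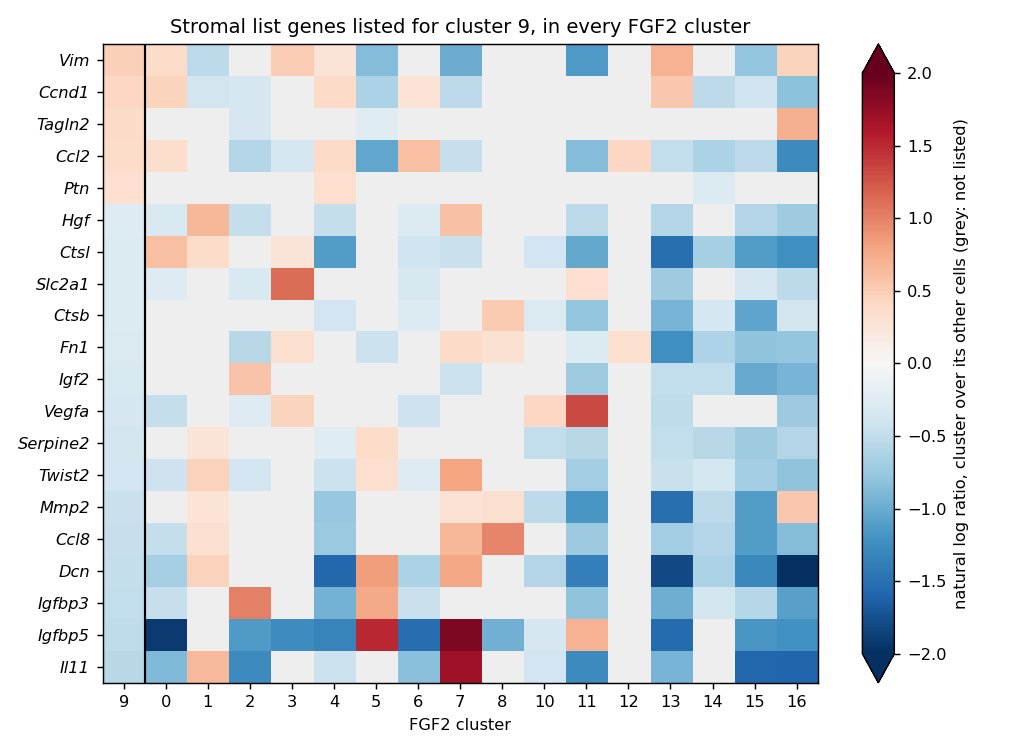
Natural log ratio (colour, cut at the ends of the scale) of the 20 stromal list genes of FGF2 cluster 9, 1 per row, in every cluster of the FGF2 library where the gene is listed, with cluster 9 at the left and grey where it is not listed. Each of the 5 genes higher in cluster 9 is also listed as higher in at least 1 other cluster, and Il11 and Igfbp5 are darkest red in cluster 7 (1.69 and 1.87).

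The 45 lower genes differed in level and hardly in the share of cells. Their median log ratio was -0.34 in the authors' deposited table, with counts in a median of 83.3% of cluster 9 cells and 78.2% of the other cells, and 25 of the 45 had the larger share in cluster 9. The median difference of shares was 0.2 points, against 42.1 points for the higher genes. With an adjusted p of the authors under 0.05 the lower genes numbered 26, and with a difference of at least 10 points there were 0. Depth per cell is unknown, and its part in these values was not tested.

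Neat1, a nuclear non-coding RNA of paraspeckles, was lowest at -0.87 (94.9% against 94.3%). After it came Il11 (interleukin 11, -0.56, 77.7% against 77.5%), the secreted chaperone Clu (-0.51, 86.8% against 82.0%), the IGF binding proteins Igfbp5 (-0.51, 40.6% against 44.2%) and Igfbp3 (-0.50, 43.3% against 49.4%), and the polyamine enzyme Sat1 (-0.50). Some of these genes marked other stromal clusters of the library. Il11 had 1.69 in cluster 7 (99.3% of cells) and Igfbp5 1.87 there (92.2%). Both were lower in several other clusters than in cluster 9, such as Il11 at -1.27 in cluster 2 and Igfbp5 at -1.91 in cluster 0. Low values of these genes were therefore not particular to cluster 9. Dcn stood at -0.48 in cluster 9, against 0.84 in cluster 5 and -1.57 in cluster 4.

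Of the further genes in the 15 lowest, Spp1 (osteopontin) was counted in 100% of cells on both sides (-0.48), and Ccl8 (-0.46), Malat1 (-0.46), Mmp2 (gelatinase A, -0.44), Cebpd (-0.40), Fmo2, Tac1 and Twist2 (-0.39 each) followed. Of 19 matrix proteases and inhibitors, 4 are listed, all as lower, namely Mmp2, the cathepsins Ctsl (-0.27) and Ctsb (-0.28) and the protease inhibitor Serpine2 (-0.37). Of 18 growth factors, Hgf (-0.26), Igf2 (-0.31) and Vegfa (-0.34) are listed as lower beside Ptn as higher. Of 22 genes of fibrillar collagens and associated matrix, 1 (4.55%) is listed, fibronectin (Fn1, -0.29). Of 26 hypoxia and glycolysis genes, 2 (7.69%) are listed, Vegfa and the glucose transporter Slc2a1 (-0.27). None of 15 immediate early genes, 75 ribosomal protein genes and 11 mitochondrially encoded genes is listed for cluster 9. Of all genes tested, 1.36% are listed for it in either direction, so an empty list of this length says little.

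The control library, grown without FGF2, had a pair of cycling clusters where the FGF2 library had 1. Control cluster 7 held 5.42% and control cluster 8 held 4.78% of the control cells, together 10.2%, against 4.42% for FGF2 cluster 9. Each library was clustered and normalized apart, so clusters need not be cut alike and these shares were not tested. In the control library, 228 genes (1.2% of 19070 tested) are listed as higher in cluster 7 and 236 (1.24%) in cluster 8. The lower genes number 23 (0.121%) and 57 (0.299%).

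Of the 228 genes higher in FGF2 cluster 9, 208 (91.2%) are listed as higher in at least 1 of the control clusters, which is 60.6% of the 343 genes higher there. Control cluster 7 shared 147 of them (64.5% of either list), and control cluster 8 shared 169 (74.1% of the FGF2 list and 71.6% of the control list). There were 108 genes higher in all 3 clusters. No gene was listed in opposite directions in FGF2 cluster 9 and a control cluster. Of the 45 lower genes, 8 were shared with control cluster 7 (17.8%, and 34.8% of its list) and 21 with control cluster 8 (46.7%, and 36.8% of its list).

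**Figure D4:**
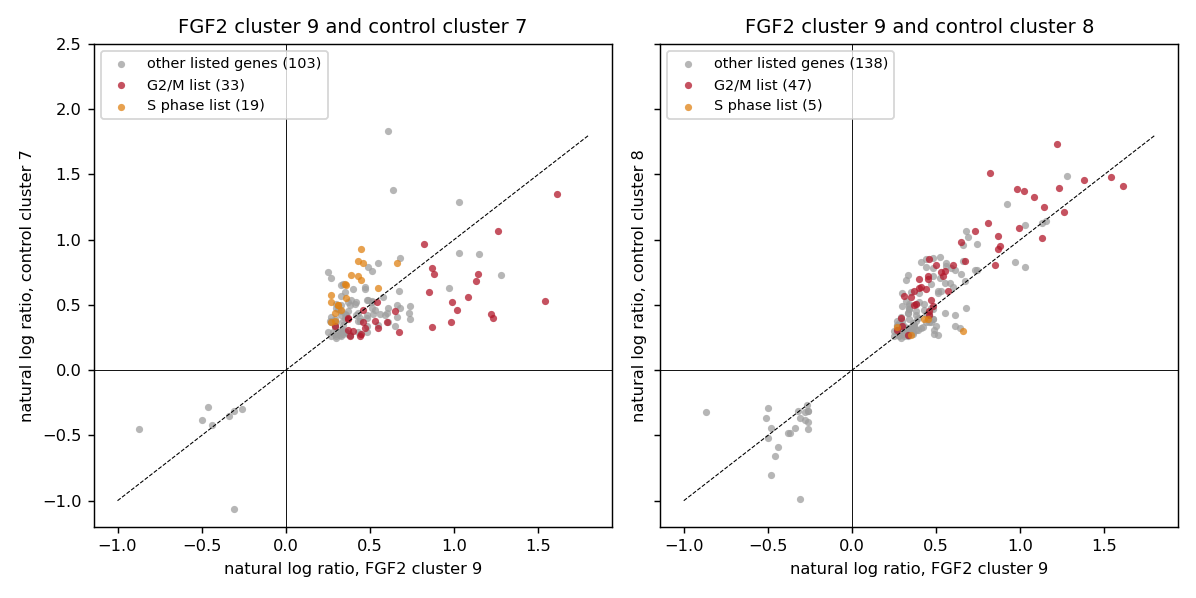
Natural log ratio of each gene listed in both clusters, FGF2 cluster 9 on the horizontal axis and control cluster 7 (left) or 8 (right) on the vertical axis, with genes of the S phase and G2/M lists in colour and a line of equal values. S phase genes lie above the line for control cluster 7, and 39 of 47 G2/M genes lie above it for control cluster 8.

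By the number of genes from the S phase, G2/M and licensing lists, FGF2 cluster 9 stood between the control clusters. From the S phase list 19 genes are higher in FGF2 cluster 9, 32 in control cluster 7 and 5 in control cluster 8, and from the G2/M list 48, 33 and 50. The licensing and fork genes number 17, 30 and 1, and the replication-dependent histones 3, 7 and 4. All 19 S phase genes of FGF2 cluster 9 are higher in control cluster 7 too, each with the larger log ratio there (medians 0.36 in FGF2 cluster 9 and 0.63 in control cluster 7). Of its 48 G2/M genes, 47 are higher in control cluster 8, and 39 of these had the larger log ratio there (medians 0.55 in FGF2 cluster 9 and 0.81 in control cluster 8). Against control cluster 7 the G2/M genes went the other way, with 28 of 33 larger in FGF2 cluster 9 (medians 0.67 in FGF2 cluster 9 and 0.40 in control cluster 7). The ratios are each relative to the other cells of their own library, which limits what a difference between libraries can show. For control clusters 7 and 8 these other cells include the other cycling cluster, while the FGF2 library had no further cycling cluster.

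Single genes give the values behind these counts. Hist1h2ap, a histone of S phase, had 0.61 in FGF2 cluster 9, 1.83 in control cluster 7 and 0.42 in control cluster 8. Cenpf had 1.22, 0.43 and 1.73 in the same clusters, and Top2a, which is made from S phase to mitosis, 1.61, 1.35 and 1.41. Mki67 was counted in 74.3% of FGF2 cluster 9 cells, 84.9% of control cluster 7 cells and 96.2% of control cluster 8 cells. The shares in the cells outside each cluster were 2.6%, 8.1% and 8.0%. The cells outside each control cluster include the other control cycling cluster, so the control values are not shares of the cells outside both. Depth per cell is unknown in both libraries, and its part in these shares was not tested. Of the genes in FGF2 cluster 9 that control cluster 7 does not list, the highest were Cenpa, Pttg1, Arl6ip1, Ccnb2, Cdc20, Ccnb1, Aurka and Knstrn, most of them genes of G2 and mitosis. Those that control cluster 8 does not list were led by Gmnn, Lig1, Vim, Pcna, Atad2, Rfc4, Hells and Mcm7, mostly genes of replication.

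In the other direction, the genes of control cluster 7 that FGF2 cluster 9 does not list were led by Hist1h2ae at 0.73, Uhrf1 (a partner of Dnmt1) at 0.50, Mcm5 at 0.47, Ccne1 (cyclin E1) at 0.46, the clamp loader subunit Rfc3 at 0.46, Tcf19 at 0.46 and H2afx at 0.44. The matricellular gene Ccn2 (0.44) was the eighth. Those of control cluster 8 were led by H2afx at 0.62, Hmgn2 at 0.62, Dynll1 at 0.50, Hp1bp3 at 0.46, Sfpq at 0.43, Ckap4 at 0.43, the CDK inhibitor Cdkn2d at 0.38 and Psat1 at 0.35. The CDK inhibitor Cdkn1c is listed as lower in both control clusters, at -0.51 in cluster 7 and -0.44 in cluster 8, and is not listed for FGF2 cluster 9. Of the 20 higher genes of FGF2 cluster 9 that neither control cluster lists as higher, 11 appear elsewhere in the control table. The 20 include Vim, Ccnd1, Ccl2, Ptn, Gdf15 and Cav1, so all stromal list genes named as higher above except Tagln2. Among the lower genes, 8 are lower in all 3 clusters (Fth1, Gm42418, Igf2, Ctsd, Mmp2, Malat1, Igfbp3 and Neat1). Another 24 are listed as lower in FGF2 cluster 9 and in neither control cluster, with Il11, Igfbp5, Ccl8, Twist2 and Fn1 among them. Il11 was counted in 11.7% of the control cells outside control cluster 12, and Igfbp5 in 14.5% of those outside control cluster 13. Genes counted in so few control cells have little room for an entry as lower, so for Il11 and Igfbp5 its absence says little. Of the genes tested in each library, 0.224% are listed as lower in FGF2 cluster 9, 0.121% in control cluster 7 and 0.299% in control cluster 8. A gene not listed for a control cluster has no value there, and Angptl4 and Gng8 of the 24 stood at -0.25, the smallest size listed.

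The promoters of the listed genes were searched for the same motif letters, as a description with no test. RefSeq promoters were found for 177 of the 228 higher genes, 205 promoters in all, of which 64.4% held a CCAAT box, 38.5% a CHR, 29.8% both and 33.2% an E2F motif. Over all 32851 promoters of 27025 genes the shares were 37.4%, 17.9%, 6.95% and 9.57%. The 44 promoters of 41 genes from the G2/M list held a CHR in 70.5% and an E2F motif in 20.5%. From the S phase list, promoters were found for only 11 of the 19 genes, 11 promoters in all, so the 95% counting intervals are wide. These promoters held a CHR in 9.09% (1.62% to 37.7%), an E2F motif in 63.6% (35.4% to 84.8%) and a CCAAT box in 81.8% (52.3% to 94.9%). The 43 promoters of 31 lower genes held these letters in 30.2% (CCAAT box), 18.6% (CHR) and 4.65% (E2F motif). A match of letters is not a binding site, and the genes were matched by symbol only.

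**Figure D5:**
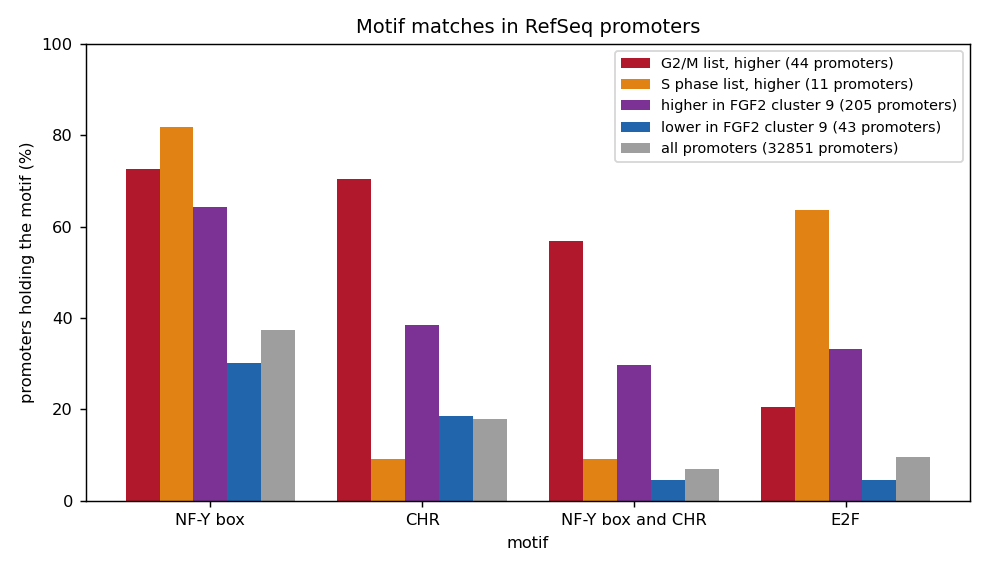
Percentage of RefSeq promoters (300 bases) that hold the letters of each motif, for genes of FGF2 cluster 9 by set and for all promoters. The NF-Y box is the CCAAT box of the text; the G2/M list has the tallest CHR bar (70.5%) and the S phase list the tallest E2F bar (63.6%).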

How the data were processed

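Single-cell RNA libraries of the 2 groups were made on a droplet system, per the labels' protocols, and processed with Cell Ranger 4.0, per the submitters' processing notes. The sources used here name no cell filter, clustering method or test. The authors deposited, per cluster, a natural log ratio of averages against all other cells of the library, the fraction of positive cells inside and outside the cluster, and a p-value. No FGF2 entry has an absolute log ratio under 0.25 or, for the higher of its 2 fractions, fewer than 25.1% of cells, so an unlisted gene has no value. The averages carry an offset of 1, which understates ratios of low genes. The log was read as natural because averages rebuilt from 5 FGF2 genes then agreed between clusters to 0.00212%, against 0.0236% with base 2. The authors' p-values rest on cells, which are not replicates, and are used in 1 alternative only.

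Each cluster's part of its library was recovered by least squares over 1490 FGF2 and 2077 control genes listed in at least 2 clusters (residual root mean square 0.0242 and 0.0238 points; parts summed to 99.95% and 100.04%), and the step was tested on simulated data. Named genes were the 20 highest and 15 lowest by log ratio, the 10 widest gaps of shares, examples from the listed members of the gene lists (the rule takes all, and the others are given by counts and medians) and the 8 strongest unshared genes per control comparison. The genes and lists were chosen with earlier results of these data known. Motifs were read on both strands. The integrated table of both libraries was not used here.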

Additional observations from a re-analysis of the deposited data

How the results depend on the processing

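The alternatives below moved a count by over 1.5 times or a motif share beyond its counting interval, and the other alternatives moved none that far. Asking for a log ratio of at least 0.5 in size left 64 higher and 5 lower genes, 58 higher cell cycle genes, 26 of the G2/M list, 2 of the S phase list, 0 higher and 2 lower stromal genes, and 28 and 54 genes shared with control clusters 7 and 8. Asking for a difference of shares of at least 10 points left 0 lower genes and 0 lower stromal genes, and an adjusted p of the authors under 0.05 left 26 lower genes. With promoters cut to 100 bases before and 50 after the start, 52.7% held a CCAAT box, 30.7% a CHR, 21.5% both and 22% an E2F motif, against 23.4%, 8.01%, 1.93% and 5.6% of all promoters. Genes with a log ratio of at least 0.5 gave 56.1% with a CHR, 47.4% with both and 26.3% with an E2F motif. The cluster's part of the library stayed between 4.42% and 4.44%. No paired analysis was possible because each group was 1 library. Depth per cell and cells per cluster are unknown, so no counting error could be given, and free RNA and doublets were not assessed.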

Other observations

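Some genes for RNA processing were listed for cluster 9 beside the cell cycle. They were picked by name after the values were seen and belong to no list used above. Of 5 Lsm and 7 Snrp genes in the FGF2 table, many of which encode core proteins of spliceosomal ribonucleoproteins, 5 and 4 are listed for cluster 9. Of 8 Hnrnp genes there, which encode RNA-binding proteins, 3 are listed. All are listed as higher, as are 228 of the 273 genes of the cluster. Of all genes tested, 1.14% are so listed, but the counts above cover only genes that some cluster lists. Lsm2, Lsm3, Lsm4 and Lsm5 are listed for no other FGF2 cluster, so these counts do not measure an excess. The listed Lsm, Snrp and Hnrnp genes had log ratios between 0.25 (Lsm4) and 0.46 (Hnrnpa1) in the authors' deposited table, with Lsm2 at 0.44 and Snrpd1 at 0.42. The splicing factor Srsf3 had 0.48 and the cold-induced RNA-binding protein Rbm3 had 0.50. Among these, Snrpg and Lsm3 are not listed as higher in either control cycling cluster.

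Actin genes were also among the higher ones, with Actg1 at 0.39 and Actb at 0.29, and the imprinted non-coding RNAs Meg3 (-0.37) and H19 (-0.26) and the ferritin gene Fth1 (-0.26) were among the lower ones. These too were picked after their values were seen.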
